A study of Rattus norvegicus with 6 samples.

Results

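Selenoproteins are proteins that carry selenocysteine, an amino acid with selenium in place of the sulphur of cysteine, and 10 of their genes were described here: Selenok, Selenos, Selenot, Selenof, Selenom, Selenon, Selenow, Selenoh, Selenoi and Selenop. All 10 were found by symbol among the 19825 genes of the count table, and all passed the filter on low counts, which left 12985 genes. The family was chosen by the measured rise of Selenok between the groups compared here. The changes of the 10 genes are therefore given as a description, and no p-value is printed for them. "Called" means an adjusted p under 0.05 in the edgeR fit across all genes (Benjamini-Hochberg). Calls, ranks and intervals are still given for the 10 genes. They rest on the comparison that chose the family, so they too are a description and not a test of it. Selenok stood at rank 4 by p and at rank 99 by fold among the 1961 genes called higher. Among the 510 of them with a mean of at least 100 CPM, a cut used for this rank alone, it was at rank 1 by fold. These ranks restate the values that chose the family. The set was put together as selenoproteins of the endoplasmic reticulum, the compartment where secreted and membrane proteins fold. That description covers 7 of them, with Selenoi placed there or in the Golgi. Selenow of the cytosol, Selenoh of the nucleolus and the secreted Selenop are known from elsewhere in or outside the cell.

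The libraries came from H9C2, an established line of rat embryonic heart myoblasts that the labels name cardiomyocytes. In the 3 siPUM2 libraries the cells had received small interfering RNA against PUM2, a Pumilio protein that is known to bind and repress messages. The 3 NC libraries came from control cells, described as given an empty vector, and nothing in the labels says whether that control included a small interfering RNA. Neither the dose nor the time after transfection is stated there. Nothing says that the libraries of a group were separate cultures, and the p-values therefore cover the spread among these libraries alone, which may be technical. After knockdown the message of Selenok was 1.62-fold higher and that of Selenos 1.27-fold, both membrane proteins that act in the disposal of misfolded proteins. The message of the secreted selenium carrier Selenop was 1.50-fold lower. For the lumenal Selenof and Selenom the values of the groups overlapped.

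Selenocysteine is written into a protein at a UGA codon, which elsewhere stops translation. Its insertion needs a dedicated transfer RNA, a stem-loop in the message, a protein that binds that loop and a special elongation factor. In the endoplasmic reticulum, selenoproteins take part in redox control, in the export and degradation of misfolded proteins, in calcium handling and in phospholipid synthesis. In muscle, Selenon is the best known of them, since its loss causes a congenital myopathy.

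Libraries held 27704702 to 30579237 counts, and a single count (1) equalled 0.0326 to 0.0360 CPM, which are counts put on a common library scale with TMM factors. The knockdown target Pum2 was lower in siPUM2 (NC 225 ± 2.67, siPUM2 124 ± 4.01 CPM; SD, n = 3 each; adjusted p = 9.23e-19, edgeR with Benjamini-Hochberg adjustment). Of 14 cardiomyocyte markers 12 were listed in the table, without Nppa and Tbx5, and 4 had a mean of at least 1 CPM. Myh6, Myh7, Tnni3, Actc1, Ryr2, Mybpc3, Myl7 and Myl2 were under 1 CPM. The summed level of that list was 306 to 364 CPM in NC and 469 to 522 CPM in siPUM2. Of 7 skeletal myoblast markers 5 were listed in the table, without Myf5 and Pax7, and their sum was 342 to 347 against 358 to 383 CPM. Fibroblast markers summed to 17116 to 17202 CPM in NC and 16731 to 17173 CPM in siPUM2. Endothelial markers summed to 2.25 to 2.38 and 2.23 to 2.64 CPM, and macrophage markers to 36.8 to 37.6 and 38.6 to 40.8 CPM. Of 6 macrophage markers 4 were listed in the table, without Ptprc and Adgre1, and 1 of these, Cd14, was above 1 CPM. Tnnt2, a cardiac troponin gene, carried most of the first sum (NC 298 ± 28.8, siPUM2 474 ± 32.4 CPM, SD, n = 3), while Nkx2-5 (19.7 ± 1.34 and 17.9 ± 1.33 CPM) and Gata4 (10.4 ± 0.219 and 9.52 ± 1.24 CPM) were not called. Cdh15 carried most of the second (NC 215 ± 3.78, siPUM2 247 ± 7.36 CPM), while Myog was lower (NC 20.1 ± 4.23, siPUM2 9.23 ± 0.445 CPM). The cardiomyocyte, skeletal myoblast and macrophage sums were higher in siPUM2, without overlap. Cd14, which carried most of the macrophage sum, was not called. Col1a1 (NC 8452 ± 76.6, siPUM2 7976 ± 164 CPM) and Col1a2 (7780 ± 56.0 and 7900 ± 59.2 CPM) carried most of the fibroblast sum. Pdgfra, Dcn and Lum were under 1 CPM. Thy1 was called higher, Col1a1 and Pdgfrb were called lower, and Col1a2 was not called. The part of these kinds of cells in the results below was not tested. In bulk RNA, a change in the number of cells of a kind and a change in the RNA of each cell cannot be told apart.

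Selenok and Selenos, the small membrane proteins of the degradation machinery, had the highest fold changes of the 10. In replicate order, here and below, Selenok was at 116, 120.2 and 105 CPM in the controls, against 179, 188 and 187 CPM after knockdown. Every siPUM2 library was far above every NC library, and the gap between the groups was wider than the spread within either. Selenok binds the palmitoyl transferase Zdhhc6, and with it attaches lipid to the calcium channel of the endoplasmic reticulum. The mean went from 114 ± 7.59 to 185 ± 4.59 CPM (SD, n = 3), a log2 fold change of 0.70 ± 0.0344 (SE), or 1.62-fold (95% interval 1.54 to 1.70). RefSeq lists 6 pseudogenes of Selenok, none of which is in the count table, so reads from such copies could have been counted to Selenok or lost, and its absolute level is uncertain to that extent. The same holds for Selenot and Selenow, with 1 pseudogene each.

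Selenos, which ties the segregase VCP to the Derlin proteins at the membrane, was at 111, 107 and 104 CPM in the controls, against 134, 137 and 138 CPM after knockdown. The groups did not overlap here either, but the step was smaller than that of Selenok. The log2 fold change was 0.34 ± 0.0292 (SE), or 1.27-fold (95% interval 1.21 to 1.32), from 108 ± 3.37 to 136 ± 2.38 CPM (SD, n = 3). The FPKM of Selenok (fragments per unit of gene length and of library size, by the authors) was 1.20, 1.29 and 1.16 times that of Selenos in the controls, against 1.55, 1.58 and 1.56 times after knockdown. The ratio was higher in every knockdown library, which restates the larger rise of Selenok, the gene for which the family was chosen.

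The sequences before the start sites of these 2 genes are shown because they had the highest fold changes and are both known as genes induced by stress of the endoplasmic reticulum. They are RefSeq sequences of the build GRCr8, matched by symbol, 250 bases each, on the plus strand, 5′ to 3′. Capitals mark the letters CCAAT (or ATTGG, its reverse), TGACGT (or ACGTCA) and TGACNNNGC.
Selenok, chr16:5158351-5158600: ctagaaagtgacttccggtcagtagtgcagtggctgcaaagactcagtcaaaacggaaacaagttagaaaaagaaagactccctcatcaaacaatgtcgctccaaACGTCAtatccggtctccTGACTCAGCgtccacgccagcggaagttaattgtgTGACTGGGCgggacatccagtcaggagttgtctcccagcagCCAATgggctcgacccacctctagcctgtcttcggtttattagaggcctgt
Selenos, chr1:129069990-129070239: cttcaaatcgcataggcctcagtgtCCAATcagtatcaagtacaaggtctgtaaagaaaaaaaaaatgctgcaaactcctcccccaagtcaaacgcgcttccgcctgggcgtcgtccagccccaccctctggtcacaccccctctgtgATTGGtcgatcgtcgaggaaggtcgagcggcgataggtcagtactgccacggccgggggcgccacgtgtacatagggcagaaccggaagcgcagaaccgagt
The windows searched ran from 250 bases before to 50 after each start, on both strands. All 10 genes had a window, and Selenop had 2. CCAAT stood in the windows of 5 members (Selenok, Selenos, Selenof, Selenoh and Selenoi), against 37.5% of all 33469 RefSeq windows of that length and 37.7% of those of tested genes. TGACGT, the core of the cyclic AMP element, was in Selenok (starting 145 bases and 1 base before the start site, the latter running past the printed end) and Selenom, against 11.3% of windows of tested genes. TGACNNNGC, the antioxidant element, was in 1 of the 10 members, Selenok, at 127 and 92 bases before the start, against 14.2% of windows of tested genes. The E-box CACGTG was in Selenos and Selenoh (9.14% of windows of tested genes). GGGCGG, the GC box, was in 6 members, against 59.5%, and in Selenok it overlaps the second TGACNNNGC match, from 87 bases before the start. The composite ER stress element (CCAAT, any 9 bases, then CCACG), its second form (ATTGG, any 1 base, then CCACG), TGACGTGG and TTGCATCA matched in none of the members' windows. They are rare in any case, at 0.149%, 0.0875%, 0.831% and 0.612% of windows of tested genes. TGACGT lies within TGACGTGG, and CCAAT within the composite element. These matches describe the letters of the windows and were tied to no measurement of binding.

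**Figure D1:**
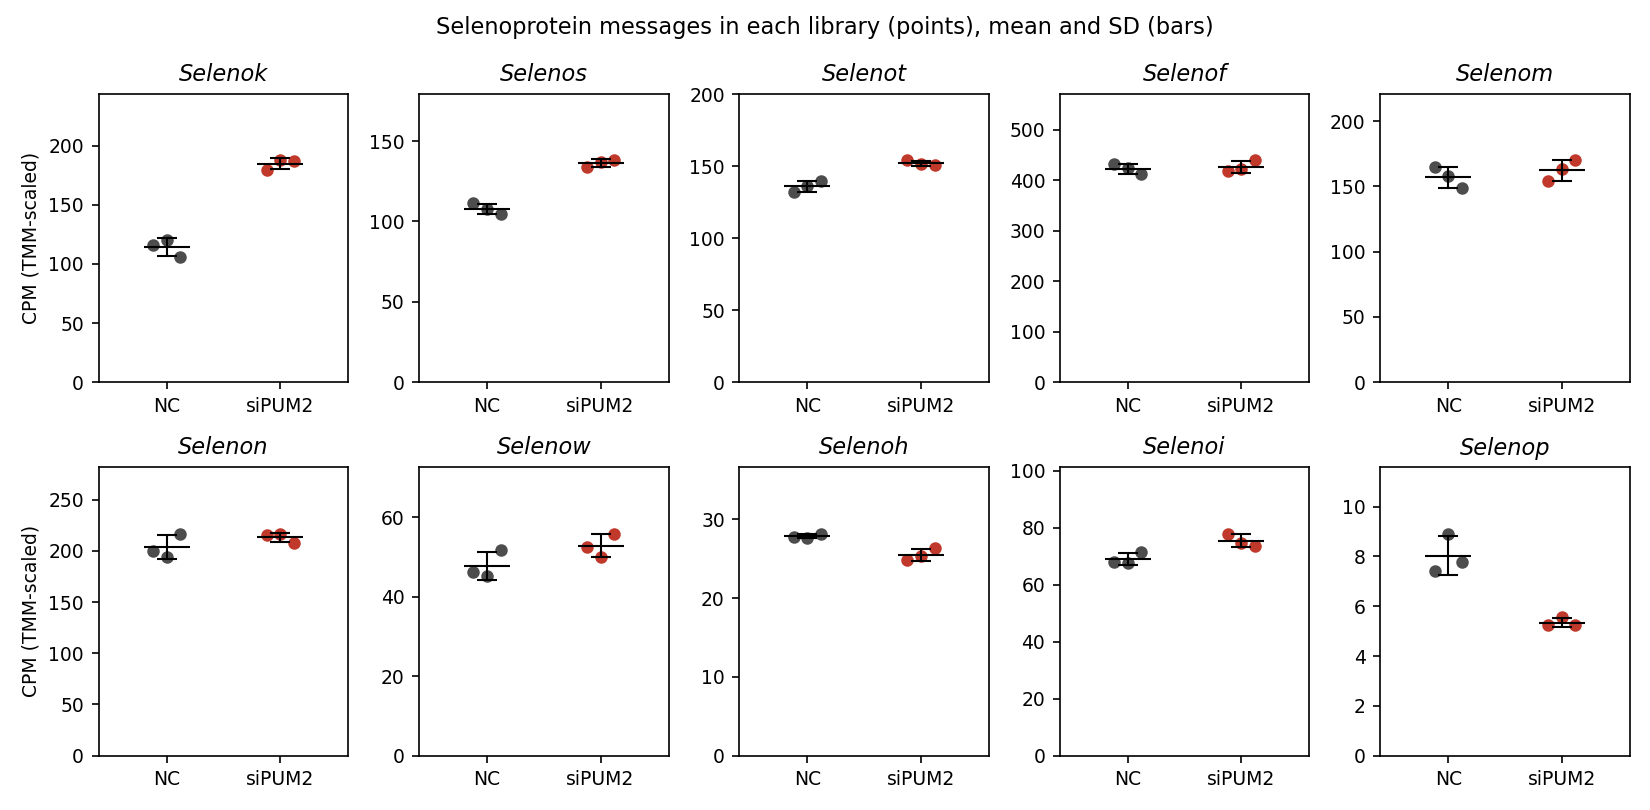
Level of each of the 10 selenoprotein messages in CPM (vertical axes start at 0 and differ between panels) in the 3 NC and 3 siPUM2 libraries, with points for libraries and bars for the mean and SD. Selenok, Selenos, Selenot and Selenoi had all siPUM2 points above all NC points, and Selenoh and Selenop had them below.

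Selenot, a thioredoxin-like oxidoreductase of the membrane, was at 132, 136 and 140.0 CPM in the controls, against 154, 151 and 151 CPM after knockdown. The groups were apart by more than the spread within siPUM2, and the change was small, 1.12-fold (log2 fold change 0.16 ± 0.0281, SE; 136 ± 4.07 to 152 ± 1.85 CPM, SD, n = 3). Selenoi, the ethanolaminephosphotransferase that makes phosphatidylethanolamine, was at 68.1, 67.6 and 71.5 CPM in the controls, against 78.0, 74.6 and 73.6 CPM after knockdown. Its groups stood close, with siPUM2 3 only just above NC 3. Its log2 fold change was 0.13 ± 0.0364 (SE), 1.09-fold, and its call in the fit across all genes was lost without NC 1, without NC 2 or without siPUM2 1, at log2 fold changes of 0.11, 0.11 and 0.10, and on log2(FPKM + 1).

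The lumenal members and Selenon differed little between the groups. Selenof, which binds the folding sensor UGGT, was at 433, 424 and 413 CPM in the controls, against 418, 423 and 440.0 CPM after knockdown. Its groups lay across each other, with a log2 fold change of 0.01 ± 0.0265 (SE) and a 95% interval of -0.04 to 0.07. Selenom, a thioredoxin-like lumenal protein, was at 165, 158 and 149 CPM in the controls, against 154, 163 and 170.1 CPM after knockdown. These overlapped too, at 0.05 ± 0.0343 (SE; interval -0.02 to 0.12). Both intervals lay below that of Selenos, which starts at 0.28, and like the other changes of the members they are a description. Selenon, a calcium-responsive reductase tied to the calcium pump and the ryanodine receptor, was at 199.6, 195 and 217 CPM in the controls, against 215, 216 and 208 CPM after knockdown. NC 3 was as high as any knockdown library, and the log2 fold change was 0.07 ± 0.0318 (SE). Without NC 3 it was 0.11 and was called, and without NC 2 it was 0.03.

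The 3 members known from other places went different ways. Selenow, a small cytosolic protein abundant in muscle, was at 46.2, 45.3 and 51.6 CPM in the controls, against 52.6, 49.99 and 55.8 CPM after knockdown. The highest NC library exceeded the lowest siPUM2 library, so the groups overlapped although the gene was called (log2 fold change 0.15 ± 0.0532, SE). That call was lost without NC 1, NC 2, siPUM2 1 or siPUM2 3, where the log2 fold change was 0.12, 0.11, 0.15 and 0.10, as well as with DESeq2 and on both FPKM scales. Selenoh, a nucleolar protein, was at 27.8, 27.7 and 28.2 CPM in the controls, against 24.8, 25.4 and 26.3 CPM after knockdown. All knockdown libraries were lower, at a log2 fold change of -0.13 ± 0.0560 (SE), which was not called, except on both FPKM scales.

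Selenop, the plasma carrier of selenium made mainly by liver, was scarce in these cells. It was at 7.41, 8.91 and 7.76 CPM in the controls (207, 269 and 238 counts), against 5.23, 5.55 and 5.25 CPM after knockdown (147, 154 and 153 counts). The knockdown libraries lay close together and all below NC. The log2 fold change was -0.59 ± 0.108 (SE), or 1.50-fold lower (NC 8.03 ± 0.787, siPUM2 5.34 ± 0.176 CPM, SD, n = 3). RefSeq places Ccdc152 across Selenop, and the libraries kept strand, but whether the counting used it is not stated, so reads of the 2 genes may be mixed. Ccdc152 was at 1.36, 1.13 and 1.17 CPM in the controls, against 1.28, 1.40 and 1.55 CPM after knockdown. A noncoding gene, LOC120100962, likewise overlaps Selenof.

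Counted over the family, 6 of the 10 members were called by the fit across all genes, where 28.4% of the 12985 genes were called. Of these, 5 were called higher (Selenok, Selenos, Selenot, Selenow and Selenoi; 15.1% of all genes were) and 1 lower (Selenop; 13.3%). Without NC 1, without NC 2 or without siPUM2 1 the members called higher were 3. The groups did not overlap in 6 members (39.9% of all genes), 4 of them higher (20.7%) and 2 lower (19.2%). The family was chosen on this comparison, so nothing is read from these counts. Of the 7 members of the endoplasmic reticulum or Golgi 4 were called higher and 3 were not called, with a median log2 fold change of 0.13. Over all 10 the median was 0.10, beside 0.001 over all genes tested. The family took 0.129% to 0.130% of the counts in NC and 0.142% to 0.145% in siPUM2.

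**Figure D2:**
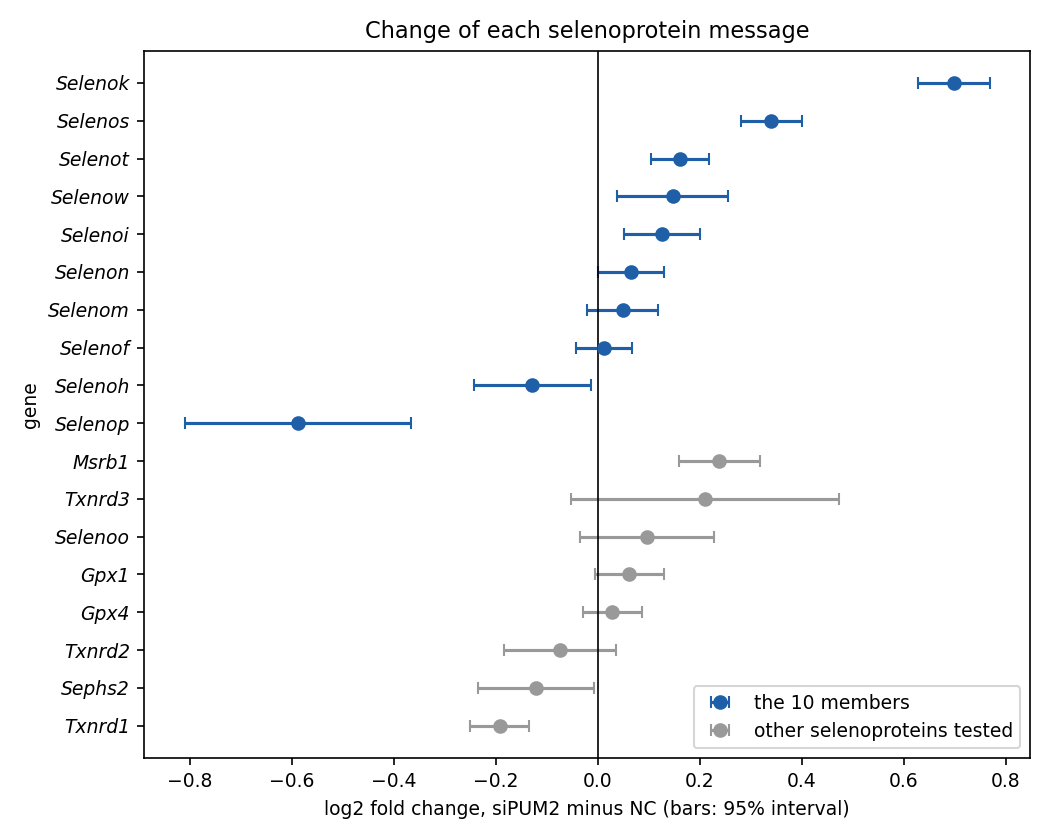
Log2 fold change (siPUM2 minus NC, horizontal axis) of the 10 members and of 8 other selenoprotein genes tested, with 95% intervals as bars. Selenok at 0.70 and Selenos at 0.34 lie furthest right and Selenop at -0.59 furthest left.

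Levels per length in the controls were not used to choose the genes. By the authors' FPKM, Selenof was the most abundant member in NC at 247 ± 5.48 FPKM (SD, n = 3), followed by Selenom at 199 ± 9.91 FPKM. Selenok came next at 101 ± 6.59 FPKM, then Selenos at 83.3 ± 2.50 FPKM. Selenow (60.5 ± 4.48 FPKM), Selenon (48.4 ± 2.88 FPKM), Selenot (38.2 ± 1.20 FPKM), Selenoh (34.4 ± 0.386 FPKM) and Selenoi (23.4 ± 0.758 FPKM) were lower. Selenop was last at 3.29 ± 0.322 FPKM, below the median of tested genes (5.32 FPKM), which the other members exceeded. In terms of rank, Selenof lay above 97.5% of the tested genes, Selenok above 94.3%, Selenoi above 78.9% and Selenop above 40.1%. None of the 9 neighbouring pairs in this order overlapped between NC libraries. The closest pair was Selenot and Selenoh, where the lowest Selenot value of 36.99 FPKM stood above the highest Selenoh value of 34.80 FPKM. The same order held in siPUM2, where Selenok, at 164 ± 3.88 FPKM, had drawn nearer to Selenom at 205 ± 9.68 FPKM. These levels rest on the gene lengths that the authors used, which range from 789 bases for Selenow to 4215 for Selenon when read back from counts over FPKM.

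**Figure D3:**
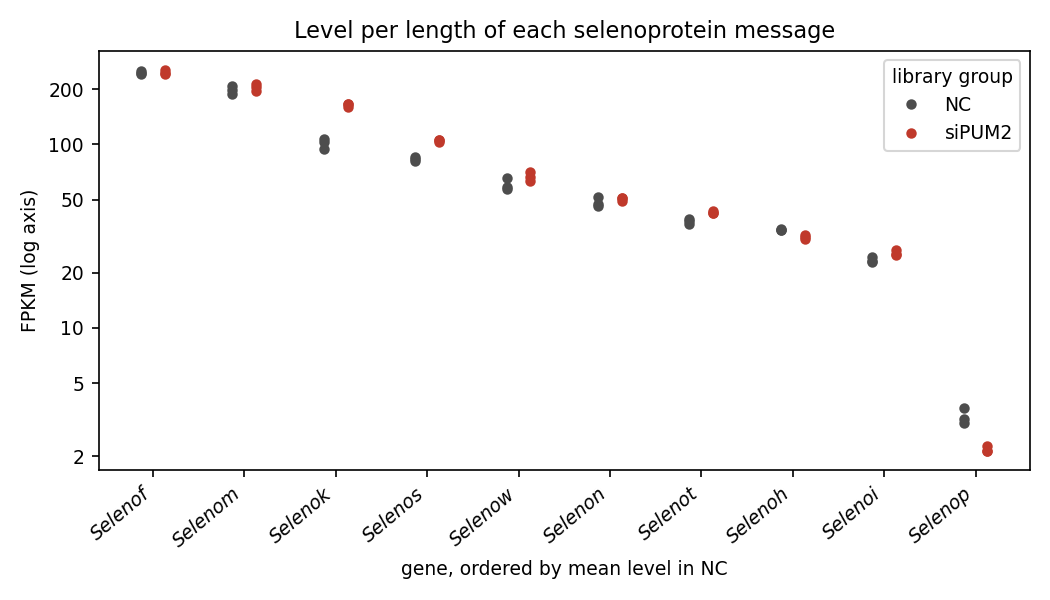
FPKM of each member (log vertical axis) in the 3 NC and 3 siPUM2 libraries, ordered by the mean in NC. The order of the genes was the same in both groups, from Selenof at 247 to Selenop at 3.29 FPKM in NC.

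Added together, the 10 messages came to 853, 838 and 823 FPKM in the controls, against 921, 940.2 and 962 FPKM after knockdown. The sum was higher by 103 FPKM, or 12.3%, with no overlap between the groups. Selenok gave 60.7% of that difference (62.6 FPKM) and Selenos 21.9 FPKM of it. Without Selenok the other 9 summed to 737 ± 11.1 FPKM in NC and 777 ± 17.8 FPKM in siPUM2 (SD, n = 3), 5.50% higher, again with no overlap. Over 20 selenoprotein genes in the FPKM table, the share of Selenok went from 7.25% ± 0.419 to 10.8% ± 0.243 of the summed FPKM, and that of Selenof from 17.6% ± 0.130 to 16.3% ± 0.155 (SD, n = 3). Gpx4, the lipid peroxidase, had the highest share in both groups, 22.7% ± 0.576 in NC and 21.3% ± 0.270 in siPUM2. The total was carried mainly by Gpx4, Selenof and Selenom. The larger share of Selenok restates the rise for which the family was chosen.

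Among the other selenoproteins, 1 gene rose and 1 fell of 8 tested, where 28.4% of all genes were called. Msrb1, which repairs oxidised methionine, rose 1.18-fold (NC 59.3 ± 1.75, siPUM2 70.0 ± 1.65 CPM; SD, n = 3; adjusted p = 2.61e-05, edgeR). Txnrd1, the cytosolic thioredoxin reductase, fell 1.14-fold (NC 145 ± 4.24, siPUM2 127 ± 0.576 CPM; adjusted p = 5.09e-06, edgeR). Both kept their calls under every alternative run. Gpx1, the cytosolic glutathione peroxidase, was at 113 ± 5.37 and 118 ± 4.05 CPM, and was called without NC 3 (log2 fold change 0.10, adjusted p = 0.0214, edgeR). Gpx4 was at 408 ± 16.7 and 417 ± 7.41 CPM, and Txnrd2, the mitochondrial reductase, at 38.1 ± 1.03 and 36.3 ± 0.980 CPM. Sephs2, which makes selenophosphate and is a selenoprotein itself, was at 33.0 ± 1.31 and 30.3 ± 0.826 CPM, Selenoo at 23.7 ± 2.31 and 25.4 ± 0.190 CPM, and Txnrd3 at 4.11 ± 0.189 and 4.76 ± 0.263 CPM. The median log2 fold change of these 8 was 0.05. Gpx3 (0.201 and 0.222 CPM) and Dio2 (1 count in 6 libraries) did not pass the filter on low counts.

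The genes that make and insert selenocysteine went both ways. Among the 16 tested, 2 rose and 4 fell, while 10 did not pass, beside 15.1% higher and 13.3% lower over all genes. The median log2 fold change was -0.07. Trnau1ap, a partner of the selenocysteine transfer RNA, rose 1.24-fold (NC 76.3 ± 2.28, siPUM2 94.2 ± 5.80 CPM; SD, n = 3; adjusted p = 2.90e-07, edgeR). Secisbp2l, a relative of the loop-binding protein, rose 1.16-fold (NC 32.2 ± 1.08, siPUM2 37.5 ± 1.41 CPM; adjusted p = 0.00323, edgeR). Eif4a3 and Ncl, which are known to bind the stem-loop of selenoprotein messages but also serve splicing and the nucleolus, fell 1.21-fold (NC 153 ± 3.52, siPUM2 126 ± 3.31 CPM; adjusted p = 1.41e-08, edgeR) and by 0.20 on the log2 scale (NC 667 ± 20.1, siPUM2 582 ± 10.7 CPM; adjusted p = 1.27e-06, edgeR). The other calls were Sars1, the seryl-tRNA synthetase, and the ribosomal protein gene Rpl30, at log2 fold changes of -0.10 and -0.07. Sars1 lost its call without NC 2 (adjusted p = 0.0501, edgeR) and without siPUM2 2 (0.133), and Rpl30 without NC 1, NC 2, siPUM2 1 or siPUM2 2 (0.165 to 0.175). On log2(FPKM + 1) both calls were lost too (0.113 and 0.203). The core factors Secisbp2 (13.5 ± 1.04 and 13.1 ± 0.886 CPM) and Eefsec (31.4 ± 2.55 and 29.5 ± 0.480 CPM) were not called. Secisbp2l, Sars1, Rpl30, Secisbp2 and Eefsec were named after their values were seen.

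Genes of the complexes in which Selenok and Selenos act went both ways too. Among 22 genes of degradation at the endoplasmic reticulum and of palmitoylation there were 3 that rose, 2 that fell and 17 that did not pass, so 5 were called, beside 28.4% of all genes. The median log2 fold change was 0.003. Erlec1, a lectin that hands over misfolded glycoproteins, rose 1.12-fold (NC 85.2 ± 2.76, siPUM2 95.05 ± 3.03 CPM, SD, n = 3; adjusted p = 0.000456, edgeR). Derl2, a Derlin, rose by 0.20 on the log2 scale (NC 49.3 ± 3.09, siPUM2 56.7 ± 3.03 CPM; adjusted p = 0.00280, edgeR). Herpud1, induced by stress of the endoplasmic reticulum, fell 1.19-fold (NC 76.6 ± 2.92, siPUM2 64.4 ± 5.53 CPM; adjusted p = 9.36e-05, edgeR), and Aup1 fell by a log2 fold change of -0.09, a call lost without NC 2 (0.0846) or siPUM2 1 (0.0504). On log2(FPKM + 1) Derl2 (0.0956), Herpud1 (0.0559) and Aup1 (0.0513) lost their calls. Without siPUM2 1 the list had 3 calls. Of the partners of the pair, Derl2 was called as given above, and 3 others were not, with Zdhhc6 at 98.4 ± 4.93 and 94.3 ± 3.39 CPM, Vcp at 512 ± 13.6 and 506 ± 3.48 CPM and Derl1 at 166 ± 1.97 and 166 ± 1.54 CPM. Aup1, Zdhhc6, Vcp and Derl1 were named after their values were seen.

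Genes of the unfolded protein response are known to be induced together with Selenok and Selenos when folding fails. Among the 21 tested, 8 fell and 1 rose, while 12 did not pass, beside 13.3% lower and 15.1% higher over all genes. The median log2 fold change was -0.08. The disulphide isomerases Pdia4 and Pdia6 fell 1.20-fold (NC 411 ± 11.1, siPUM2 343 ± 10.7 CPM, SD, n = 3; adjusted p = 2.24e-08, edgeR) and 1.13-fold (NC 484 ± 9.98, siPUM2 428 ± 9.19 CPM; adjusted p = 3.97e-06, edgeR). The lectin chaperone Calr fell 1.11-fold (NC 1999 ± 31.6, siPUM2 1809 ± 33.3 CPM; adjusted p = 4.33e-05, edgeR). Of the 9 called genes 5 kept their calls under every alternative run, namely these 3, Pdia3 and Hyou1. Hspa5, Sdf2l1, Creld2 and the riser Manf each lost theirs when certain single libraries were left out: Hspa5 without any library but siPUM2 3, Sdf2l1 without NC 3, siPUM2 1 or siPUM2 2, Creld2 without NC 1, NC 2 or siPUM2 1, and Manf without NC 2, NC 3, siPUM2 2 or siPUM2 3. Among the 12 not called were Xbp1 (log2 fold change -0.04), Atf4 (-0.05), Atf6 (-0.08), Ern1 (-0.03), Eif2ak3 (0.09) and Ddit3 (-0.09). These genes and Pdia3, Hyou1, Hspa5, Sdf2l1, Creld2 and Manf were named after their values were seen.

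Partners of Selenof, Selenot and Selenon included the calcium pumps among their risers. There were 4 that rose, 1 that fell and 4 that did not pass among the 9 tested, beside 28.4% of all genes called. Their median log2 fold change was 0.05. The calcium pump Atp2a2, known as SERCA2, rose 1.19-fold (NC 337 ± 6.74, siPUM2 401 ± 3.26 CPM, SD, n = 3; adjusted p = 8.93e-09, edgeR). Its fast-muscle relative Atp2a1 rose 1.54-fold (NC 15.4 ± 0.259, siPUM2 23.6 ± 1.34 CPM; adjusted p = 1.07e-08, edgeR). Ryr1, the skeletal muscle calcium release channel, rose (NC 3.41 ± 0.422, siPUM2 4.70 ± 0.711 CPM; adjusted p = 0.0181, edgeR), a call lost without NC 1, NC 2 or siPUM2 1 (0.0601 to 0.149), and with DESeq2 (0.0615). It was lost on log2(FPKM + 1) too. At means of 0.197 FPKM in NC and 0.27 FPKM in siPUM2, Ryr1 was under the minimum of 1 FPKM for log2(FPKM + 0.1). Of the folding sensors that hold Selenof, Uggt1 fell 1.13-fold (NC 106 ± 2.46, siPUM2 93.6 ± 0.519 CPM; adjusted p = 2.82e-05, edgeR) and Uggt2 rose 1.22-fold (NC 37.9 ± 1.14, siPUM2 46.1 ± 2.20 CPM; adjusted p = 0.000164, edgeR). Ryr1 and Uggt2 were named after their values were seen.

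Around Selenoi, 2 of 12 tested genes of ethanolamine and choline phospholipid synthesis rose and 10 did not pass, where 15.1% of all genes were called higher. The median log2 fold change was 0.07. Pcyt2, which makes the activated ethanolamine that Selenoi uses, rose 1.10-fold (NC 130.5 ± 1.37, siPUM2 143 ± 6.11 CPM, SD, n = 3; adjusted p = 0.00114, edgeR). Ptdss1, a phosphatidylserine synthase, rose 1.08-fold (NC 136 ± 4.11, siPUM2 146 ± 2.31 CPM; adjusted p = 0.00579, edgeR), a call lost without NC 2 (0.0598). On log2(FPKM + 1) Pcyt2 was no longer called (0.0684), nor was Ptdss1 (0.0642). Pisd, the mitochondrial decarboxylase that makes phosphatidylethanolamine by another route, was at 51.7 ± 0.812 and 47.6 ± 1.07 CPM (adjusted p = 0.0504, edgeR). Without NC 2 the list had 1 call and without NC 3 it had 4.

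**Figure D4:**
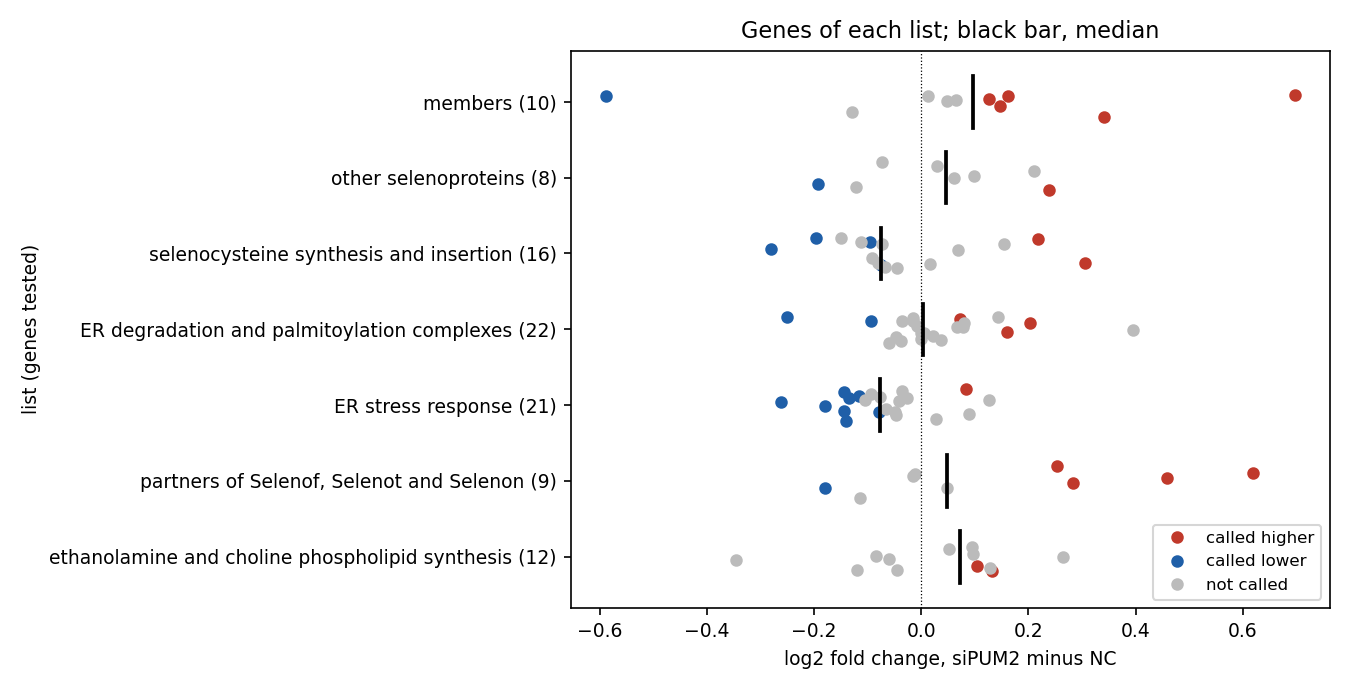
Log2 fold change (siPUM2 minus NC, horizontal axis) of every tested gene of the 10 members and of 6 lists of related genes, coloured by call, with a black bar at each median. Selenok lies at 0.70, and the medians run from -0.08 for the unfolded protein response (drawn as ER stress response) to 0.10 for the members.

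The genes on either side of each member were measured as well, taken as the nearest tested genes in RefSeq order. Of these 20 neighbours 2 were called higher (15.1% of all genes), 6 lower (13.3%) and 12 were not called, with a median log2 fold change of -0.05. Next to Selenok, Ccdc66 was at 13.7 ± 0.935 and 14.7 ± 1.27 CPM and Actr8 at 25.0 ± 0.986 and 26.9 ± 2.46 CPM, neither called. Next to Selenos, Snrpa1 was lower (NC 76.2 ± 2.02, siPUM2 70.5 ± 1.09 CPM; adjusted p = 0.0146, edgeR) and Chsy1 was at 65.9 ± 1.58 and 66.1 ± 0.450 CPM. None of these 4 neighbours was called higher.

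The genes whose levels over the 6 libraries ran most like those of Selenok were found by the smallest root mean square distance of log2 CPM from the NC mean, among 8717 other genes with a mean of at least 10 CPM. They were Adm (adrenomedullin) at a distance of 0.0389, Prkaa2 (a catalytic subunit of AMP-activated protein kinase) at 0.0613 and Myocd (myocardin) at 0.0649. Adm was at 28.7, 28.8 and 25.1 CPM in the controls, against 41.5, 43.9 and 45.8 CPM after knockdown. NC 3 was the lowest library for Adm and for Selenok, a likeness that the choice of Adm by this distance favours. Among the members the nearest to Selenok was Selenos, at a distance of 0.257, and the farthest was Selenop, at 0.878. The distance includes the step between the groups, and the order of the members in it follows their log2 fold changes given above.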

How the data were processed

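Messenger RNA of 6 H9C2 libraries was sequenced from directional libraries after bead capture of polyadenylated RNA, per the labels' protocols. The authors deposited whole-number read counts per gene, not normalized, and FPKM values to 2 decimals. HISAT2, DESeq2 and the build mRatBN7.2 are named per the submitters' processing notes, and no source used here gives their versions, the annotation or the counter. Libraries were grouped by title. No row lacked a gene name (0 rows).

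Counts were fitted with edgeR 4.0.16 (R 4.3.3; quasi-likelihood test, TMM, filterByExpr, group as the only term), with Benjamini-Hochberg adjustment over 12985 genes and a call at an adjusted p under 0.05. The fit was also run on simulated counts with the spread that it had itself estimated. That checks the code and not the calls made here. SEs come from the quasi-likelihood F statistic. Of 148 list entries 137 matched by symbol. The members and lists were chosen with earlier results of these data known. Named genes were the members, Pum2, the other selenoproteins, the 3 genes with the lowest p of each other list and the 3 most like Selenok, beside those said to be named later. A gene of these lists is counted but not reported here by name. Sequences are from RefSeq (GRCr8). No library was a copy of another (chi-square of counts per degree of freedom 2.07 to 3.80 within groups). Alternatives used DESeq2 1.42.0, limma 3.58.1, other scaling factors and filters, log2(FPKM + pseudocount), a replicate block and each library left out.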

Additional observations from a re-analysis of the deposited data

How the results depend on the processing

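Over 15 alternatives the log2 fold change of Selenof changed sign, from -0.01 to 0.03, and the other members kept their direction. Selenof and Selenom were never called, and Selenon was called in 1 alternative. Selenok ranged from 0.64 to 0.74 and Selenos from 0.32 to 0.36, and Selenop from -0.64 to -0.43, the last on log2(FPKM + 1), which shrinks low genes. Without a filter, on log2(FPKM + 1), 2246 genes were called in place of 3692 (1160 higher, 1086 lower), with 3 members higher and 2 lower. There were 2 calls among degradation and palmitoylation genes in place of 5, and 5 in the unfolded protein response in place of 9. Phospholipid synthesis had 1 call in place of 2, of neither of the 2 genes called in the main fit. On log2(FPKM + 0.1), 2 members were lower, with Selenoh added. When each library was left out in turn, 3004 to 3538 genes were called (1603 to 1798 higher, 1395 to 1740 lower), 4 to 7 members (3 to 6 higher, 1 lower throughout), 3 to 6 degradation and palmitoylation genes, 6 to 12 of the unfolded protein response, 1 to 4 of phospholipid synthesis, 4 to 7 of selenocysteine synthesis, 4 to 5 partners and 2 to 3 other selenoproteins. The cause of these shifts was not tested. The replicate numbers are shared by the groups but did not pair the libraries (correlations of same-numbered deviations 0.0238, 0.0258 and 0.00373), and not every library correlated best with its own number. With the number as a replicate block 3731 genes and 6 members were called, Rpl30 (adjusted p = 0.0651, edgeR) and Manf (0.0541) lost their calls and Pisd gained one (0.0396). In NC, 9 neighbouring pairs of levels were also apart on TMM-scaled CPM per length. Leaving out a library could not make them overlap, so that says nothing of stability. Depth limits Selenop most, at 147 to 269 counts a library.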
